A study of Mus musculus with 6 samples.

Results

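This account covers 10 genes that move, make, remove or sense adenosine, a breakdown product of ATP that signals outside the cell. Array rows were chosen by name, as those that the platform annotation pairs with 1 member symbol alone, taking for a gene with several rows the one with the highest mean over all 6 arrays. Of the 10 genes, 7 had such a row, out of 22180 genes measured: the transporters Slc28a2, Slc29a1 and Slc29a2, the adenosine-forming enzymes Nt5e and Entpd1, and the adenosine-removing enzymes Ada and Adk. The receptor genes Adora1, Adora2a and Adora2b had none and were not analysed here. Rows were thus selected on their mean level over both groups, which decided only between the 2 rows of Slc29a1. Slc28a2 was in addition chosen by its known difference between the groups in these data, so that difference is described here without a test.

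The samples were cardiomyocytes cultured from hearts of 1-day-old C57BL/6 mice, enriched by letting faster-attaching cells settle first. All 6 samples spent 12 h under low oxygen, at 2% O2, with N2 at 93% and CO2 at 5%. The hormone fibroblast growth factor 21 (FGF21) was present at 1 µg/ml in 3 samples and absent from 3 control samples, and the series was made to find the genes it regulates in hypoxic cardiomyocytes. No normoxic sample was analysed, so the effect of hypoxia cannot be read from these arrays. The labels number the samples as biological replicates but do not tie them to separate litters or cultures, so the p-values reflect sample-to-sample spread that could be technical in part.

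Cells under low oxygen break down ATP, and part of the adenine nucleotide leaves the cell. Outside, Entpd1 (CD39) strips ATP and ADP to AMP and Nt5e (CD73) turns AMP into adenosine, which acts on G-protein-coupled receptors that slow the heart beat or widen coronary vessels. Adenosine returns to the cell through equilibrative transporters such as Slc29a1 (ENT1) and Slc29a2 (ENT2), which let nucleosides run down their gradient, or through the sodium-driven concentrative transporter Slc28a2 (CNT2), which prefers purine nucleosides. Inside, Adk phosphorylates adenosine back to AMP and Ada deaminates it to inosine.

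The next protein-coding gene after Slc28a2 on chromosome 2 is a related copy, Slc28a2b, on the same strand in the RefSeq annotation of GRCm38.p6, with 1 pseudogene listed between them. The promoter windows of both are printed because the array rows of these neighbours behaved differently, and that of Ada because its groups did not overlap either. The groups of Slc29a1 did not overlap either, but its windows are not printed. Each window runs from 250 bases before to 50 bases after an annotated start, on the gene's own strand, from RefSeq (GRCm38.p6). Capitals mark matches on either strand to any of 5 short motifs. The motif TATAAA is the TATA box, CCAAT is a common promoter box, the GC box is written GGGCGG, the hypoxia response element has the core ACGTG, and the half-site of the cyclic AMP element is TGACG. Matches may overlap one another.
Slc28a2, chr2:122426185-122426484, plus strand: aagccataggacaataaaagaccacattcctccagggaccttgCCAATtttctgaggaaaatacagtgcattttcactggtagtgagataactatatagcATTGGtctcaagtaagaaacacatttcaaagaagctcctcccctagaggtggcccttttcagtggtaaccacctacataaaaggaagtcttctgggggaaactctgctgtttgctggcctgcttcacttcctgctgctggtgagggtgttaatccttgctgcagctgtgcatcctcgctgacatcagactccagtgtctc
Slc28a2b, chr2:122484691-122484990, plus strand: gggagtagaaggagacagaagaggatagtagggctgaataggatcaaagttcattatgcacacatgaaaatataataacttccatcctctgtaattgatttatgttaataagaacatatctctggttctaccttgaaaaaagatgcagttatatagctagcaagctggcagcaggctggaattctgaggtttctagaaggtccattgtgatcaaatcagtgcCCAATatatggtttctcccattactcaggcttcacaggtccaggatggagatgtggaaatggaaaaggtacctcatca
Ada, chr2:163750190-163750489, minus strand: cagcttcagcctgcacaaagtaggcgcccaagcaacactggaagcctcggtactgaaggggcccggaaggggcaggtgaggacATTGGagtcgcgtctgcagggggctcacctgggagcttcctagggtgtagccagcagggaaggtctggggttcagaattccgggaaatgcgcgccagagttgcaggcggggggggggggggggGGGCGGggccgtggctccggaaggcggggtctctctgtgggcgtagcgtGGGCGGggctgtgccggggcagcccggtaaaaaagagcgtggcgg

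These windows differ in base composition and in the motifs they hold. The Slc28a2 window was 46.7% G and C and held 2 CCAAT matches and no other motif. The Slc28a2b window was 40.0% G and C and held 1 CCAAT match, and the best local alignment of both windows was only 8 identical bases, so the neighbours' start regions were not alike in sequence. The Ada window was 68.0% G and C, against a median of 52.7% over 32851 windows, and held 2 GC boxes and 1 CCAAT match. Over the 16 windows of the 7 measured members, GGGCGG was found in 10 (35.7% of all windows hold it), CCAAT in 7 (37.4%), TGACG in 4 (20.8%), ACGTG in 3 (19.6%), all of these 3 at Slc29a1, and TATAAA in 0 (13.6%). Of these 16 windows 8 belong to Slc29a1 and some overlap, and a match is a description of letters, not evidence of a binding site.

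Among the transporters, Slc28a2 (probe set 17375454) had the widest gap between the groups. All levels below are log2 values on the authors' normalised scale. Slc28a2 stood at 5.77, 5.49 and 5.68 in FGF21 replicates 1 to 3 and at 5.05, 4.99 and 5.13 in the controls. Every FGF21 array was above every control array. The means were 5.65 ± 0.143 (SD, n = 3) and 5.06 ± 0.0713, a log2 difference of 0.59 or 1.51-fold. It was larger in size than that of 99.9% of genes. Because Slc28a2 was chosen by this difference, that rank is no evidence of an effect. Both means lay below the lowest array median of 5.76, so this is a difference at the dim end of the scale, and whether the control level is above background was not tested. Leaving out any 1 array kept the difference between 0.53 and 0.67.

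The neighbouring copy Slc28a2b (probe set 17375480) had no such gap. It stood at 5.33, 5.13 and 5.38 with FGF21 and at 5.22, 5.49 and 5.35 without, with the groups interleaved. Its difference was -0.07 ± 0.10 (SE; 95% interval -0.30 to 0.16). The closeness of the transcripts and the chance that probes of one row bind the other copy were not tested. Slc28a2 values are therefore uncertain to that extent.

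**Figure D1:**
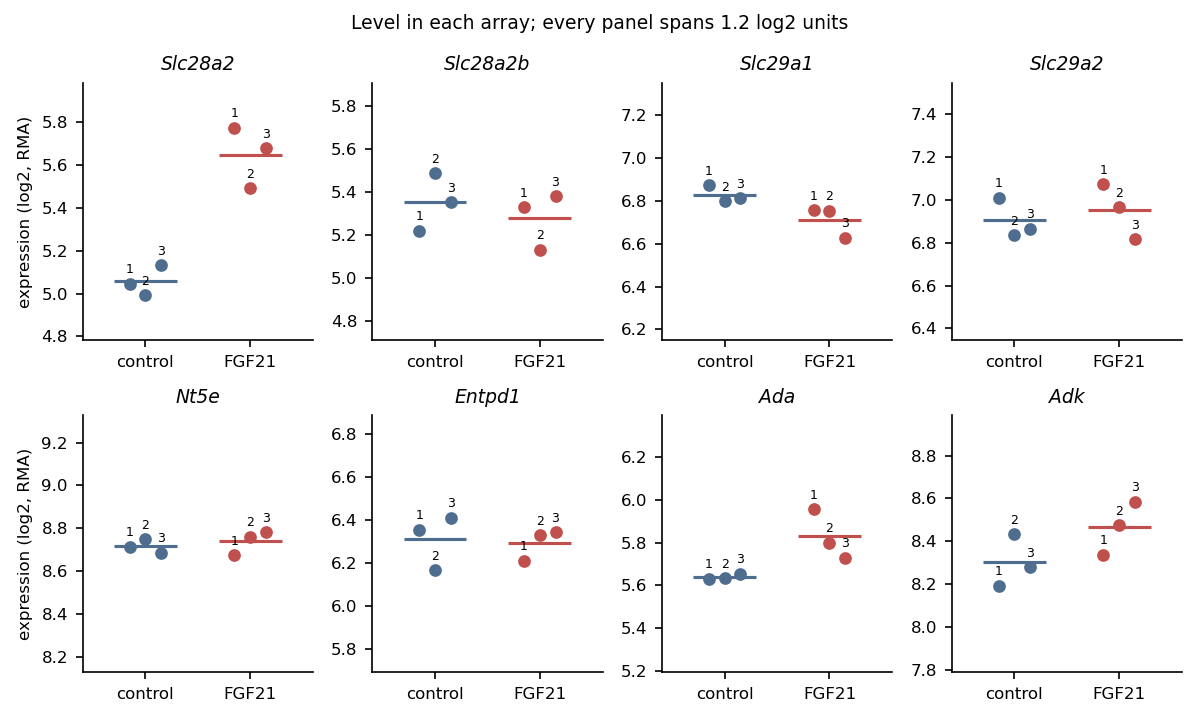
Log2 expression of the 7 measured members and of the neighbouring copy Slc28a2b in each array, with controls in blue, FGF21 arrays in red, replicate numbers above the points and group means as lines; every panel spans the same range. Slc28a2 separates the groups, from at most 5.13 in controls to at least 5.49 with FGF21, while Slc28a2b does not.

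The equilibrative transporters differed little. Slc29a1 (probe set 17345202), the main nucleoside carrier of heart muscle, stood at 6.76, 6.75 and 6.63 with FGF21 and at 6.87, 6.80 and 6.81 without. The groups did not overlap, but the gap between the nearest arrays was small beside the spread. The difference was -0.11 ± 0.07 (SE), or 1.08-fold lower, with an interval of -0.26 to 0.03 and a limma adjusted p of 0.526. A dimmer row of the same gene (probe set 17337945) lay at 4.24 ± 0.0524 (SD) and 4.23 ± 0.0237 and differed by 0.0063 (interval -0.13 to 0.14); the intervals of both rows overlap. Slc29a2 (probe set 17356325) stood at 7.07, 6.96 and 6.82 with FGF21 and at 7.01, 6.84 and 6.87 without. Its groups overlapped throughout, with a difference of 0.05 ± 0.08 (interval -0.14 to 0.23, limma adjusted p = 0.858), and its sign turned without FGF21 replicate 1 (-0.0127).

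The adenosine-forming enzymes showed no detectable difference. Nt5e (probe set 17520073), which makes the last step to adenosine, stood at 8.67, 8.76 and 8.78 with FGF21 and at 8.71, 8.75 and 8.69 without. All arrays lay within a narrow band, and the difference of 0.02 ± 0.06 (SE) had an interval of -0.12 to 0.16, which leaves room for at most a 1.12-fold higher level (limma adjusted p = 0.919). Entpd1 (probe set 17359344), the enzyme that supplies AMP, stood at 6.21, 6.33 and 6.34 with FGF21 and at 6.36, 6.17 and 6.41 without. Control replicate 2 was the lowest array and control replicate 3 the highest, so the FGF21 arrays fell inside the control range. The difference was -0.02 ± 0.08 (interval -0.19 to 0.16, limma adjusted p = 0.954). Neither sign was stable: with quantile normalisation applied again Nt5e came to -0.0348 and Entpd1 to 0.0030, and with each array centred on its median Entpd1 came to 0.0190.

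The adenosine-removing enzymes both had higher means with FGF21, but neither passed the test over all genes, and the interval of Adk included 0. Ada (probe set 17394063), adenosine deaminase, stood at 5.96, 5.80 and 5.73 with FGF21 and at 5.63, 5.63 and 5.65 without. The controls were nearly identical, and every FGF21 array was above them. The difference was 0.19 ± 0.07 (SE), or 1.14-fold (interval 1.02 to 1.27), with a limma adjusted p of 0.363, and it was 0.12 without FGF21 replicate 1, the highest array. The control mean of 5.64 was below the lowest array median of 5.76, and the FGF21 mean of 5.83 was above it. Adk (probe set 17297576), adenosine kinase, stood at 8.34, 8.47 and 8.58 with FGF21 and at 8.19, 8.43 and 8.28 without. Control replicate 2 lay above FGF21 replicate 1, so the groups overlapped, and the difference of 0.16 ± 0.09 (interval -0.03 to 0.36) had a limma adjusted p of 0.499. It was 0.10 without FGF21 replicate 3, 0.11 without control replicate 1 and 0.0993 with quantile normalisation applied again.

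**Figure D2:**
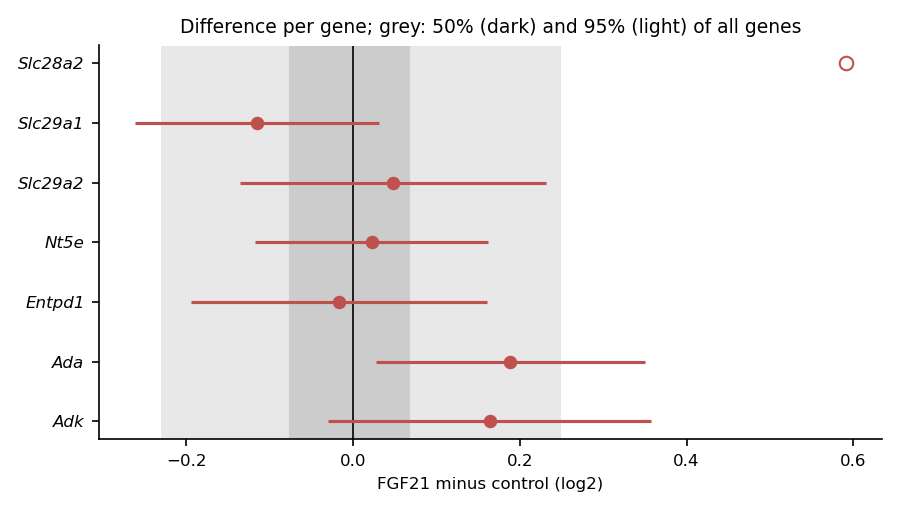
FGF21 minus control on the log2 scale for each measured member, as points with 95% intervals from limma; the open point of Slc28a2 has no interval because its difference helped to choose it. Grey bands hold the central 50% and 95% of all 22180 genes (-0.08 to 0.07 and -0.23 to 0.25), and the 6 other members lie inside the wider band.

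Counted together, 0 of the 6 members other than Slc28a2 passed limma at an adjusted p under 0.05, as did 0 of all 22180 genes (0%). At an unadjusted p under 0.05 the count was 1 of 6, Ada, against 11.7% of all genes (6.59% higher and 5.11% lower), and it was 0 without control replicate 1. Groups did not overlap for Ada and Slc29a1, 2 of the 6, against 17.1% of all genes. Of all genes 8.99% were higher without overlap, as Ada was, and 8.14% lower, as Slc29a1 was. Slc28a2 is left out of these counts because its difference helped to choose it. With 6 tested members, 1 call is near the background share. The differences of these 6 ran from -0.11 for Slc29a1 to 0.19 for Ada, beside a median of -0.0056 over all genes.

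Other genes of purine handling were taken from 6 lists written by function, with 88 genes, of which 78 had a row. Of these 78, 2 were higher and 5 lower at an unadjusted p under 0.05, together 8.97%, a smaller share than the 11.7% of all genes, and 0 passed limma after adjustment. Their median difference was -0.0047. The count of 7 depended on single arrays: leaving out FGF21 replicate 1 gave 11, FGF21 replicate 2 gave 4, and FGF21 replicate 3 or control replicate 3 gave 3.

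Of the other nucleoside transporters and the remaining adenosine receptor, 4 of 5 had lower values, where 52.2% of all genes did, with a median of -0.10. At an unadjusted p under 0.05 there was 1 of 5, or 20%, against 11.7% of all genes. Slc29a4, a plasma membrane monoamine transporter that also carries adenosine, stood at 6.35, 6.37 and 6.23 with FGF21 and at 6.43, 6.51 and 6.55 without, with no overlap. Its difference was -0.18 ± 0.07 (SE, limma adjusted p = 0.372). The concentrative relatives of Slc28a2 had differences of the opposite sign, with overlapping groups: Slc28a1, which prefers pyrimidines, at -0.12 ± 0.08 and the broad carrier Slc28a3 at -0.10 ± 0.08. Adora3, the only adenosine receptor gene with a value here, was at 5.90 ± 0.140 (SD) with FGF21 and 5.97 ± 0.0510 without, a difference of -0.06 ± 0.08 (SE).

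Enzymes on either side of adenosine showed small and mixed differences. Of 14 other nucleotidases 7 were higher and 7 lower, with a median of -0.01. Only Entpd8 reached an unadjusted p under 0.05 in that list (7.14%, against 11.7% of all genes). Entpd8 was at -0.21, with overlapping groups and levels below the array medians. It lies outside the rule for named genes and was chosen after its values were seen. Of 16 genes of purine salvage, deamination and the methyl cycle 13 were higher, with a median of 0.03. The lower ones made up 18.8% of the list, against 52.2% of all genes. At an unadjusted p under 0.05 there were 0, against 11.7% of all genes. Without control replicate 3 the lower genes in that list went from 3 to 6, and with quantile normalisation applied again to 5. Ahcy, which releases adenosine from S-adenosylhomocysteine, was at 0.13 ± 0.08 (SE), Xdh, which oxidises the products of deamination to uric acid, at 0.17 ± 0.08, and Hprt, the salvage enzyme for hypoxanthine, at 0.11 ± 0.09; these 3 were also chosen after their values were seen. In de novo purine synthesis, Atic, which makes the final steps to IMP, stood at 7.45, 7.43 and 7.41 with FGF21 and at 7.18, 7.39 and 7.10 without, a difference of 0.21 ± 0.08 (limma adjusted p = 0.370).

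Genes of ATP release and of P2 receptors, which sense ATP and ADP upstream of adenosine, had a median of -0.07. Lower values were found for 13 of 16 (81.2%, against 52.2% of all genes), or for 10 without FGF21 replicate 3 and 11 with arrays centred on their median. At an unadjusted p under 0.05 there were 2 of 16, or 12.5%, near the 11.7% of all genes. Gja1, the connexin 43 of gap junctions and of hemichannels that can pass ATP, stood at 11.13, 11.12 and 11.15 with FGF21 and at 11.55, 11.29 and 11.38 without. The FGF21 arrays were tightly grouped below all controls. The difference was -0.27 ± 0.08 (SE), or 1.21-fold lower, with a limma adjusted p of 0.250. P2ry1, an ADP receptor, was dim and differed by -0.16 ± 0.07 (limma adjusted p = 0.420). Of 16 G protein and adenylyl cyclase genes that work below adenosine receptors, 1 was higher and 1 lower at an unadjusted p under 0.05 (12.5%, near the 11.7% of all genes), namely Gnao1 at 0.19 and Adcy9 at -0.16, both with overlapping groups and named after their values were seen.

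**Figure D3:**
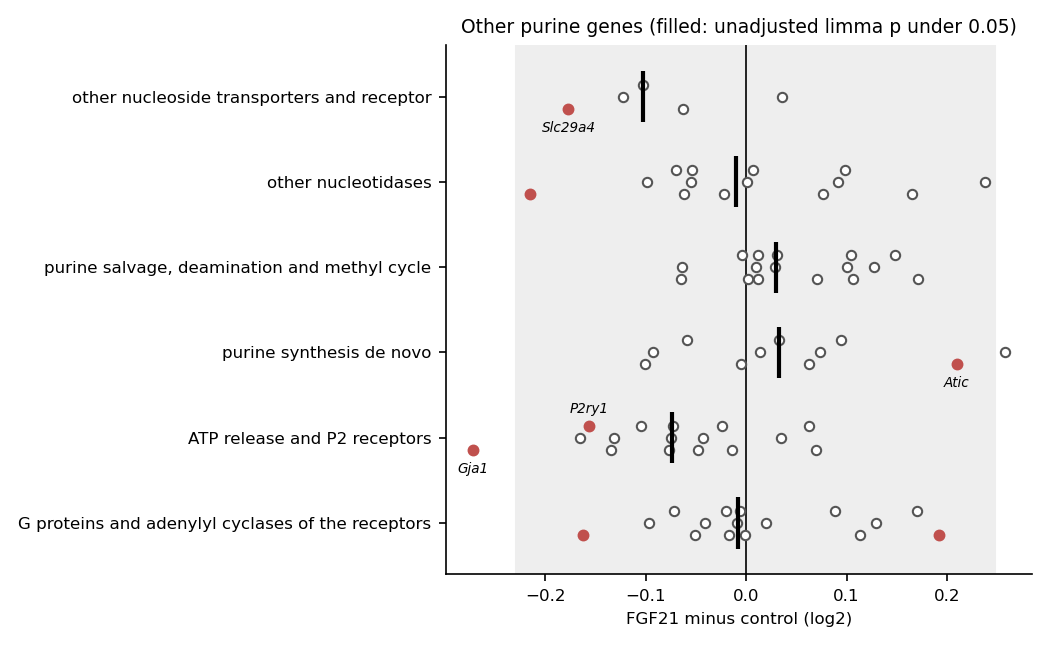
FGF21 minus control on the log2 scale for the 78 other purine genes with a row, in 6 lists; filled points had an unadjusted limma p under 0.05, black bars are list medians and the grey band holds 95% of all genes. The list medians lie between -0.10 and 0.03.

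The label of the cells was checked against markers. All 11 cardiomyocyte markers, among them Myh6 and Tnnt2, lay above the highest array median, but so did all 10 fibroblast, 12 of 12 endothelial and 9 of 10 macrophage and leukocyte markers, so transcripts of other heart cells were measured as well. In such bulk RNA, fewer cells of a type and less RNA per cell cannot be told apart. Of the endothelial markers, 8 of 12 were lower with FGF21 at an unadjusted p under 0.05, against 5.11% of all genes, and 0 passed limma after adjustment. Their median was -0.28, and list means ran from 7.19 to 7.41 with FGF21 against 7.49 to 7.69 in controls. Among the 8 were Kdr at -0.61 ± 0.17 (SE), Cdh5 at -0.44 ± 0.13, Pecam1 at -0.32 ± 0.10 and Erg, of smallest p, at -0.35 ± 0.08. The markers of the list without such a call were Egfl7 at -0.22, Tie1 at -0.04, Tek at 0.0041 and Eng at 0.07. Kdr and these were named after their values were seen. With an ordinary equal-variance statistic the count of 8 was 1. Entpd1, which endothelial cells and leukocytes express among other cells, differed by -0.02 (interval -0.19 to 0.16) in the same arrays. The part of the endothelial shift in its value was not tested.

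Other marker lists are given beside the members because Nt5e is also made by fibroblasts and Ada by leukocytes. Fibroblast markers had a median of 0.0041, with list means of 10.27 to 10.34 with FGF21 and 10.28 to 10.35 without. Macrophage and leukocyte markers had a median of -0.02, with list means of 7.49 to 7.67 and 7.55 to 7.57; within that list Ptprc, the pan-leukocyte CD45 gene, was at 0.20 ± 0.08 (SE) and Cd68 at -0.20 ± 0.06. Of 6 epicardial markers, 3 were higher at an unadjusted p under 0.05, against 6.59% of all genes, and 0 passed limma after adjustment, while Wt1 was at -0.04; the median was 0.13 and list means were 7.99 to 8.12 against 7.85 to 7.96. The smooth muscle and pericyte list had a median of -0.04 with means of 9.05 to 9.15 against 9.14 to 9.33, but 3 of 8 members reached an unadjusted p under 0.05, against 11.7% of all genes, and 0 passed limma after adjustment. In that list Rgs5 was at -0.49 ± 0.15 (SE), or -0.28 without FGF21 replicate 1. Abcc9 was at -0.45 ± 0.13, or -0.28 without control replicate 1. Rgs5 and Abcc9 were lower without overlap, but Pdgfrb at -0.03 and Cspg4 at 0.02 had overlapping groups. The smooth muscle myosin gene Myh11 was higher at 0.16 ± 0.06. All these genes of the list were named after their values were seen. Cardiomyocyte markers had a median of -0.05, with means of 11.30 to 11.35 against 11.30 to 11.54. Of these 11, 0 had an unadjusted p under 0.05, against 11.7% of all genes. Of 5 red cell markers 1 had a row, Epb42, at -0.21. The part of these shifts in the values of Slc28a2, Ada and Adk was not tested.

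**Figure D4:**
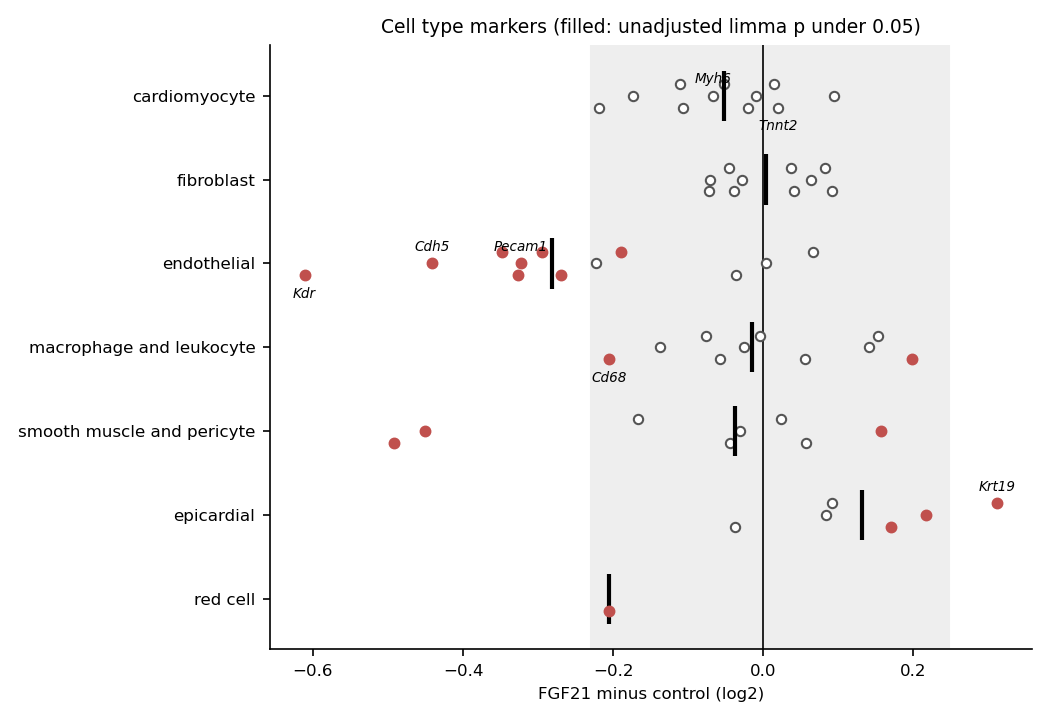
FGF21 minus control on the log2 scale for cell type markers in 7 lists, drawn as in the plot of purine genes. The endothelial list has its median at -0.28, with Kdr at -0.61, while the cardiomyocyte and fibroblast medians lie near 0.

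**Figure D5:**
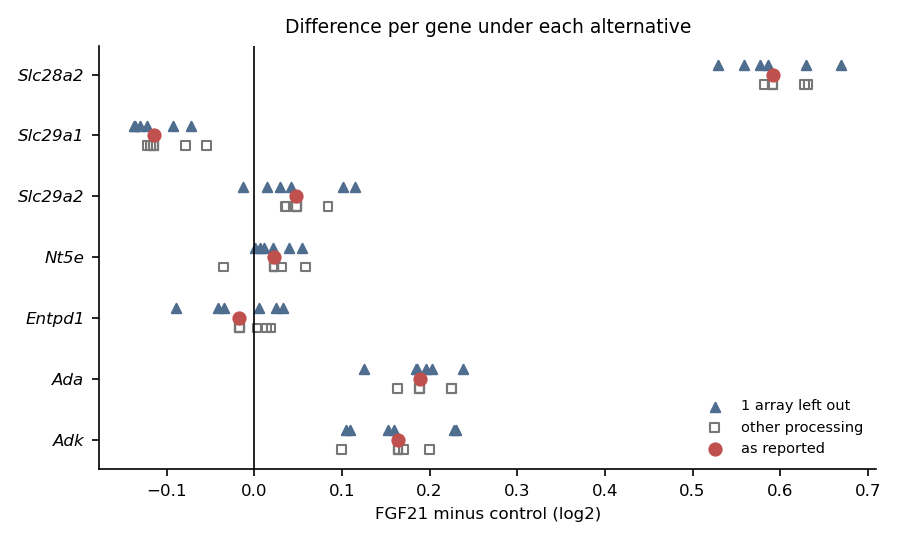
FGF21 minus control on the log2 scale for each measured member as reported (red circles), with 1 array left out (triangles) and under the other processing settings (open squares). Slc28a2 stays between 0.53 and 0.67, Ada and Adk stay above 0, and Slc29a2, Nt5e and Entpd1 lie on both sides of 0.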

How the data were processed

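Total RNA of 6 cardiomyocyte cultures was hybridised to Affymetrix Mouse Gene 2.0 ST arrays, 1 array a sample, and grouped by the sample titles. The deposited values are log2 expression made by the authors with robust multi-array average (RMA) with affy under R 3.2.2, per the submitters' processing notes. RMA equalises the arrays' distributions and shrinks the differences of genes near background. Chip definition and build: not given in the sources used here. The table had 41345 rows, of which 23521 were paired with 1 symbol, 1814 with several and 16010 with none in the naming table. Array medians were 5.76 to 5.79 with FGF21 and 5.81 to 5.83 in controls, array correlations 0.993 to 0.997, and 0 array pairs were identical. The number of arrays limits the precision.

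FGF21 minus control was fitted over all 22180 genes with limma 3.58.1 in R 4.3.3 (lmFit, eBayes, no covariate, two-sided, 95% intervals), adjusted by Benjamini-Hochberg over all genes at 0.05. On simulated data for this comparison with 22180 genes, limma recovered 66% of 100 genes changed by 0.5 and 96% of 100 changed by 1, with 3 false calls. Changes as small as those of the 6 tested members, at most 0.19 in size, were not simulated, so their recovery is not known. Members and lists were chosen with earlier results of these data known. Named genes were all members, up to 3 per list with an unadjusted p under 0.05 and groups that do not overlap, and the first 2 markers of a list with its most changed one; other names are marked in the text or were chosen after their values were seen. Alternatives were a replicate block, each array left out, other normalisation, filters, priors, weights and rows.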

Additional observations from a re-analysis of the deposited data

How the results depend on the processing

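Slc28a2, Ada and Adk kept their sign in every setting run, and Slc29a1 in every setting on its own row. The other row of Slc29a1 gave 0.0063. For Slc28a2, Ada and Slc29a1, whose groups did not overlap, leaving out 1 array could not turn the sign. The block, prior and ordinary statistic leave the difference itself unchanged, so they could not turn it either. Leaving out genes below the median level removed Slc28a2 and Ada. Signs turned for Slc29a2 without FGF21 replicate 1 (-0.0127, up to 0.115 without FGF21 replicate 3), for Nt5e with quantile normalisation again (-0.0348), and for Entpd1 without FGF21 replicate 1 (0.0246), control replicate 1 (0.0051) or control replicate 3 (0.0329; -0.0891 without control replicate 2), with quantile normalisation again (0.0030), median centring (0.0190) and array weights (0.0139); the cause was not tested. Of all genes, 0 passed limma at an adjusted p under 0.05 (2594 unadjusted); the count was 58 with dim genes left out, 16 with a trend and robust prior, 12 with median centring, 5 with quantile normalisation again, 2 with array weights or the mean of all rows, and 0 to 2 with 1 array left out (2 without FGF21 replicate 1). The unadjusted count was 1710 to 3028 with 1 array left out (1710 without FGF21 replicate 2) and 1700 with dim genes left out (11090 genes tested). Of calls at an unadjusted p, 56.3% were higher, and 79.9% with median centring. Among members other than Slc28a2 the count of 1 was 0 to 1 with 1 array left out, 2 with median centring, 0 with dim genes left out, and 0 and 2 at thresholds of 0.01 and 0.1. Among the 78 purine genes the count of 7 was 3 to 11 with 1 array left out, 4 with quantile normalisation again, and 1 and 14 at those thresholds. Counts for single lists were added after the values were seen. With dim genes left out, fewer genes of a list were tested, so lower members numbered 5 for ATP release and P2 receptors and 1 for transporters. Arrays sharing a number had deviations correlated at 0.103, 0.158 and 0.0065, and arrays of different number at -0.160 to 0.0416. By that measure 4 of 6 arrays matched their own number best. These values do not decide whether the numbers pair samples. The labels do not say that a number marks a shared culture, so the replicate block was run as an alternative. With a replicate block 2902 genes had an unadjusted p under 0.05, 1 member among them, and 0 genes passed after adjustment.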
